A study of Mus musculus with 15 samples.

Results

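The effect of a drug pair, PHA+ICG, was set against the sum of the effects of its members. For each of 18193 genes the departure from additivity was taken on the log2 scale as the change with PHA+ICG minus the change with PHA minus the change with ICG, each change being measured against DMSO, the vehicle, of its own set of arrays. All 15 arrays of the series enter this quantity, 15 of 15. A gene lies above the sum when PHA+ICG left it higher than both single changes added together would, and below the sum when it was left lower.

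The arrays are Affymetrix mouse arrays of mammospheres, spheres that mammary cells form when they grow without attachment. The cells came out of mammary tumours that arose in mice of strain FVB/N with the genotype WAPCre-DNbcatn;HGF, which all 5 groups share, the DMSO groups included. Spheres were cultured for 7 days and then exposed for 24 h, and 250 ng of RNA was labelled per array. A first set (array code JAH) holds 3 DMSO, 3 PHA and 3 ICG arrays, and a second set (code JHO) holds 3 DMSO and 3 PHA+ICG arrays. No group received both drugs in the first set, and none received a single drug in the second, so the combination and the set cannot be told apart beyond what each set's own DMSO arrays take out. The labels name WAP, the promoter of a milk protein gene active in secretory mammary cells, as the driver of Cre, and give no doses, no full drug names, no ages and no pooling of animals. Nor do they say whether replicates were separate cultures or mice, so a p-value here speaks only of the scatter among these arrays, and that scatter may be technical. The number of arrays limits the precision.

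MET is the receptor tyrosine kinase for HGF and signals through ERK, while Wnt ligands stabilise β-catenin, which switches on target genes with TCF and LEF factors. The labels do not spell out the drugs; PHA is generally known as the start of the name of a MET kinase blocker, and ICG as that of a compound that blocks transcription by β-catenin. In mammary tumours both pathways are known to drive growth. Additivity on a log scale is a reference point for a drug pair: drugs that change a gene by independent factors multiply, so their log changes add.

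The sets differed before any drug is considered. DMSO of the second set differed from DMSO of the first for 4990 genes at an adjusted p under 0.05 (27.4% of those tested), and 13975 genes lay within 0.5 of each other. The mean log2 level of 22 macrophage markers was 10.76 to 11.15 on the DMSO arrays of the first set and 9.76, 7.78 and 7.71 on those of the second, so DMSO array 1 of the second set stood apart. With PHA+ICG it was 8.77, 6.94 and 6.95, with array 1 again highest. The 21 fibroblast markers ran the other way, at 8.82 to 9.37 in the first set and 10.99 to 11.16 in the second, whereas 16 endothelial markers lay between 5.58 and 5.91 on all DMSO arrays. The epithelial keratin gene Krt8 read 8.04 to 10.51 over the 15 arrays and the basal keratin gene Krt14 8.23 to 11.22. In RNA from whole spheres, fewer cells of a type and less RNA per cell cannot be told apart. The median residual SD was 0.11 in the first set and 0.24 in the second, a ratio of 2.22, and every test below uses 1 spread pooled over both.

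Across genes, the measured effect of the pair followed the sum only in part. The PHA+ICG effect correlated with the sum of the single effects at r = 0.56 over 18193 genes, with a slope of 0.46 on the sum. The correlation was 0.62 with the ICG effect alone, with a slope of 0.72, and 0.26 with the PHA effect alone. These values describe genes, which are not independent replicates, and the effects compared share no array. They were not corrected for the error of the sum, so the slope does not show a shortfall from additivity. The root mean square distance of the PHA+ICG effect was 0.42 from the sum, 0.33 from the ICG effect and 0.41 from the PHA effect, so the ICG effect alone was nearer than the sum, which also carries the error of both singles. For 85.2% of genes the departure was within 0.5, its median was −0.05 and its median SE was 0.29.

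**Figure D1:**
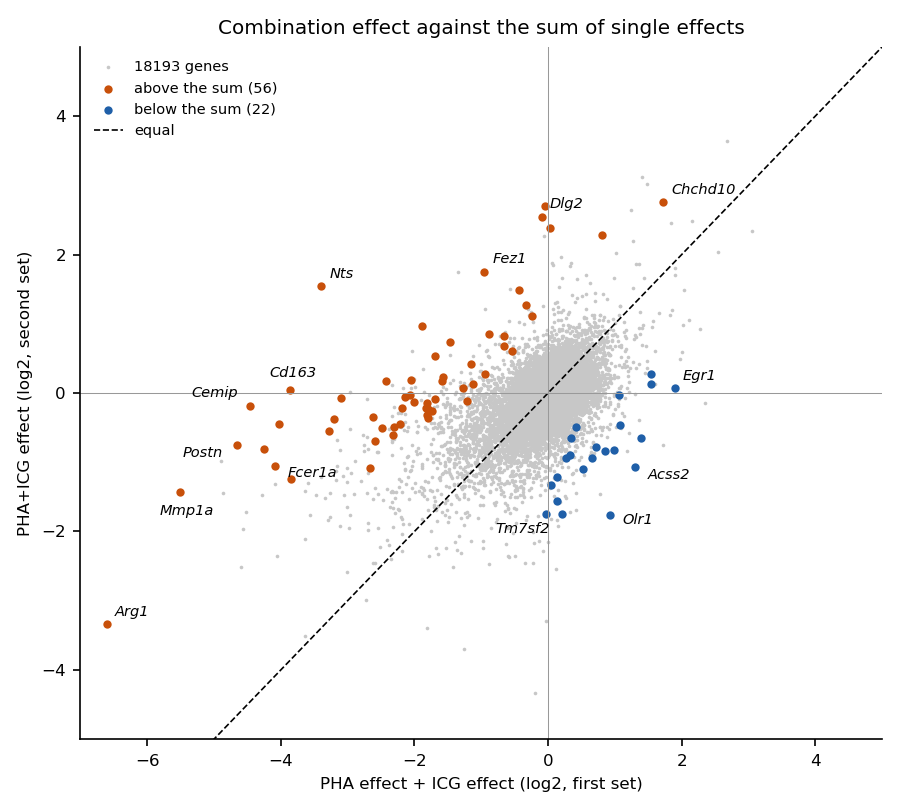
Each point is a gene, with the sum of its PHA and ICG effects (log2, first set) on the horizontal axis and its PHA+ICG effect (log2, second set) on the vertical axis; the dashed line marks equality. The 56 genes called above the sum lie mostly at the left, where the sum is strongly negative, and the 22 called below it lie to the right of the line.

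In all, 78 genes (0.429%) departed from the sum at an adjusted p under 0.05, 56 of them above it (0.308%) and 22 below it (0.121%). At an unadjusted p under 0.05 there were 1294. Of the 56 genes above, 46 had both single effects below 0, and the PHA+ICG effect was below 0 in 30 of the 56 and above 0 in 26. In 34 of these 56, both singles were called with a shared sign and the departure ran the other way. The pair effect then fell short of the sum or had the opposite sign. Over all tested genes, both singles were called with the same sign for 74. A further view is that 17 genes above and 3 below had a called single effect of at least 1 and a PHA+ICG effect within 0.5 of 0. Of the 22 genes below, 13 had both single effects above 0, and 19 had a PHA+ICG effect below 0. These counts by sign are partly built in. The departure adds the PHA+ICG effect and subtracts both single effects, which share DMSO of the first set. The counts among the 56 and the 22 describe the called genes and are no separate result about them.

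The direction of the departure ran against the difference between the DMSO groups for many called genes. Part of this is built in. The departure adds DMSO of the first set and subtracts DMSO of the second, and the DMSO difference does the reverse with the same arrays. Among the 56 above the sum, DMSO of the second set was at least 0.5 lower than DMSO of the first for 34, at least 0.5 higher for 12 and closer than that for 10. Among the 22 below the sum it was at least 0.5 higher for 17 and lower for 1. Over all genes these counts were 2045 lower and 2173 higher. The share of this difference in the departures was not tested, because set and combination coincide.

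The array's own floor also lay close to many expectations. The level expected under additivity is DMSO of the second set plus both single effects, and for 11 of the 56 genes above the sum it was under 2.43, the lowest value of any gene on any array, against 0.18% of all genes. For 20 of the 56 it was under 3.40, the 5th percentile of gene values, against 4.45% of all genes, and for none of the 22 below. With the expectation raised to that percentile, a limit chosen after the data were seen, 50 of the 56 still lay at least 1 above it. On the linear scale the single changes of 26 of the 78 genes would together have removed more signal than DMSO of the second set held, so no expectation exists there. The same was true of 121 of all 18193 genes.

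**Figure D2:**
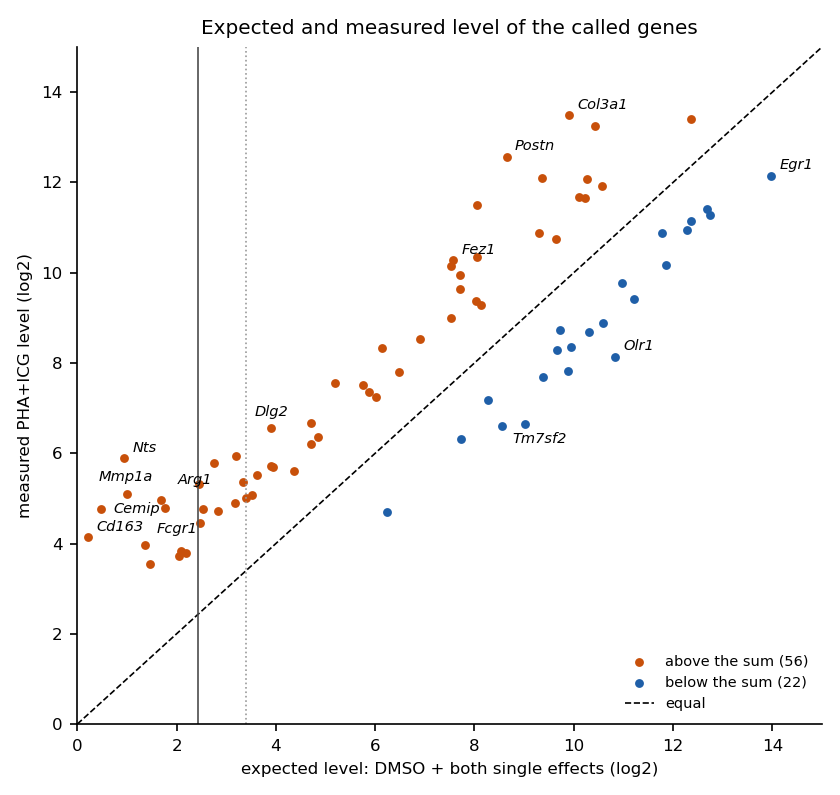
Each point is 1 of the 78 called genes, with the log2 level expected from DMSO plus both single effects on the horizontal axis and the mean measured log2 level with PHA+ICG on the vertical axis; the dashed line marks equality, the solid vertical line the lowest gene value (2.43) and the dotted one the 5th percentile (3.40). Cd163, Cemip, Nts and Mmp1a stand left of the solid line, and Fez1, Dlg2 and the collagen genes stand to the right of both.

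The highest 3 departures above the sum were those of Nts, Cemip and Mmp1a. Nts encodes the precursor of neurotensin, a secreted neuropeptide. It read 8.35, 8.39 and 8.02 with DMSO in the first set, 6.37, 6.21 and 7.21 with PHA, and 6.64, 6.73 and 6.19 with ICG. In the second set it read 4.05, 4.75 and 4.22 with DMSO and 5.97, 5.20 and 6.49 with PHA+ICG. Each single drug left Nts lower than DMSO on every array and the pair left it higher on every array, with no overlap in any of these contrasts. The departure was 4.94 ± 0.62 (SE, n = 3 arrays a group; 95% interval 3.62 to 6.27; limma adjusted p = 0.0029). DMSO itself differed by −3.92 between the sets, and the expected level was 0.94, under the array's floor. Measured from the 5th percentile instead, the departure was 2.48.

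Mmp1a, an interstitial collagenase, read 6.78, 7.09 and 6.93 with DMSO, 4.04, 3.99 and 4.01 with PHA and 4.60, 4.43 and 4.02 with ICG. In the second set it read 6.45, 6.75 and 6.35 with DMSO and 5.16, 4.76 and 5.37 with PHA+ICG. All drug arrays lay under the DMSO arrays of their set, yet the pair lowered Mmp1a by less than either single did. The PHA+ICG effect was −1.42 against −2.92 with PHA (adjusted p = 0.00307 for the difference) and −2.59 with ICG (adjusted p = 0.036). The departure was 4.08 ± 0.34 (adjusted p = 0.000119), and the DMSO groups were −0.42 apart. The expected level of Mmp1a was 1.01, under the floor, and measured from the 5th percentile the departure was 1.69. Its close relative Mmp1b departed by 2.09 ± 0.34 (adjusted p = 0.0163), but its expected level was 1.47, and measured from the 5th percentile the departure was 0.15. Signal from near-identical transcripts of both genes may be shared. These were 2 called of 26 matrix proteases and inhibitors, against 0.308% of all genes. Of the 26 departures 18 were positive, against 7926 of 18193 over all genes, and their median was 0.32, against −0.05. That median ran from 0.10 without PHA+ICG array 1 to 0.60 without DMSO array 1 of the second set.

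F3, tissue factor, the initiator of blood clotting, was measured well above the floor. It read 8.96, 8.79 and 8.67 with DMSO, 8.01, 7.75 and 7.90 with PHA and 7.72, 7.44 and 7.82 with ICG, and then 9.73, 9.57 and 10 with DMSO and 10.10, 9.77 and 9.99 with PHA+ICG. Both singles lowered it on every array, while PHA+ICG and DMSO of the second set overlapped. The departure was 2.25 ± 0.28 (adjusted p = 0.0029). Cemip, which takes part in the breakdown of hyaluronan, departed by 4.29 ± 0.44 (adjusted p = 0.000714). Its values were 8.32, 7.88 and 7.94 with DMSO, 6.09, 5.76 and 5.87 with PHA and 5.97, 5.44 and 5.75 with ICG, then 5.00, 4.90 and 4.95 with DMSO and 4.52, 5.41 and 4.38 with PHA+ICG. In the second set Cemip was thus already low with DMSO, its groups overlapped, and the expected level was 0.48, with a departure of 1.36 from the 5th percentile. Another probe set of Cemip, of about equal mean signal (5.80 against 5.88), departed by 0.04, and a dimmer one by 0.22.

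Promoters of these genes are shown because the letters TGAGTCA, the consensus of AP-1, the factor family that acts at the end of the ERK pathway, stood in 7 of the 49 promoters of genes above the sum that RefSeq's GRCm38.p6 table gives (14.3%), against 5.33% of the 14452 tested genes with a promoter and 5.20% of all promoters. The window runs from 250 bases before to 50 after each gene's start, and both strands were searched. The motif was added after the called genes were seen, and a match is a description of the letters only. Capitals mark TGAGTCA, and each line runs 5′ to 3′ along the gene.
Nts, chr10:102490589-102490655, minus strand: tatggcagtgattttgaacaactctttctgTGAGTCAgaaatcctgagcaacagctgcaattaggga
Mmp1a, chr9:7464038-7464104, plus strand: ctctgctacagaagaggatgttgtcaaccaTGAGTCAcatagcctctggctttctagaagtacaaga
Mmp1b, chr9:7388083-7388149, minus strand: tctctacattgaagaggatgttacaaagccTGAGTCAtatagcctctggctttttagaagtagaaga
F3, chr3:121723372-121723438, plus strand: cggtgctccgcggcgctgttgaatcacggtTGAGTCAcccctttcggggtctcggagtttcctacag
The motif begins 207 bases before the start in Nts, 73 in Mmp1a, 93 in Mmp1b and 135 in F3. Col6a1, Lpin3 and the clone-named D430020J02Rik are the others above the sum with the motif, and Olr1 is the only one of 20 promoters below the sum.

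**Figure D3:**
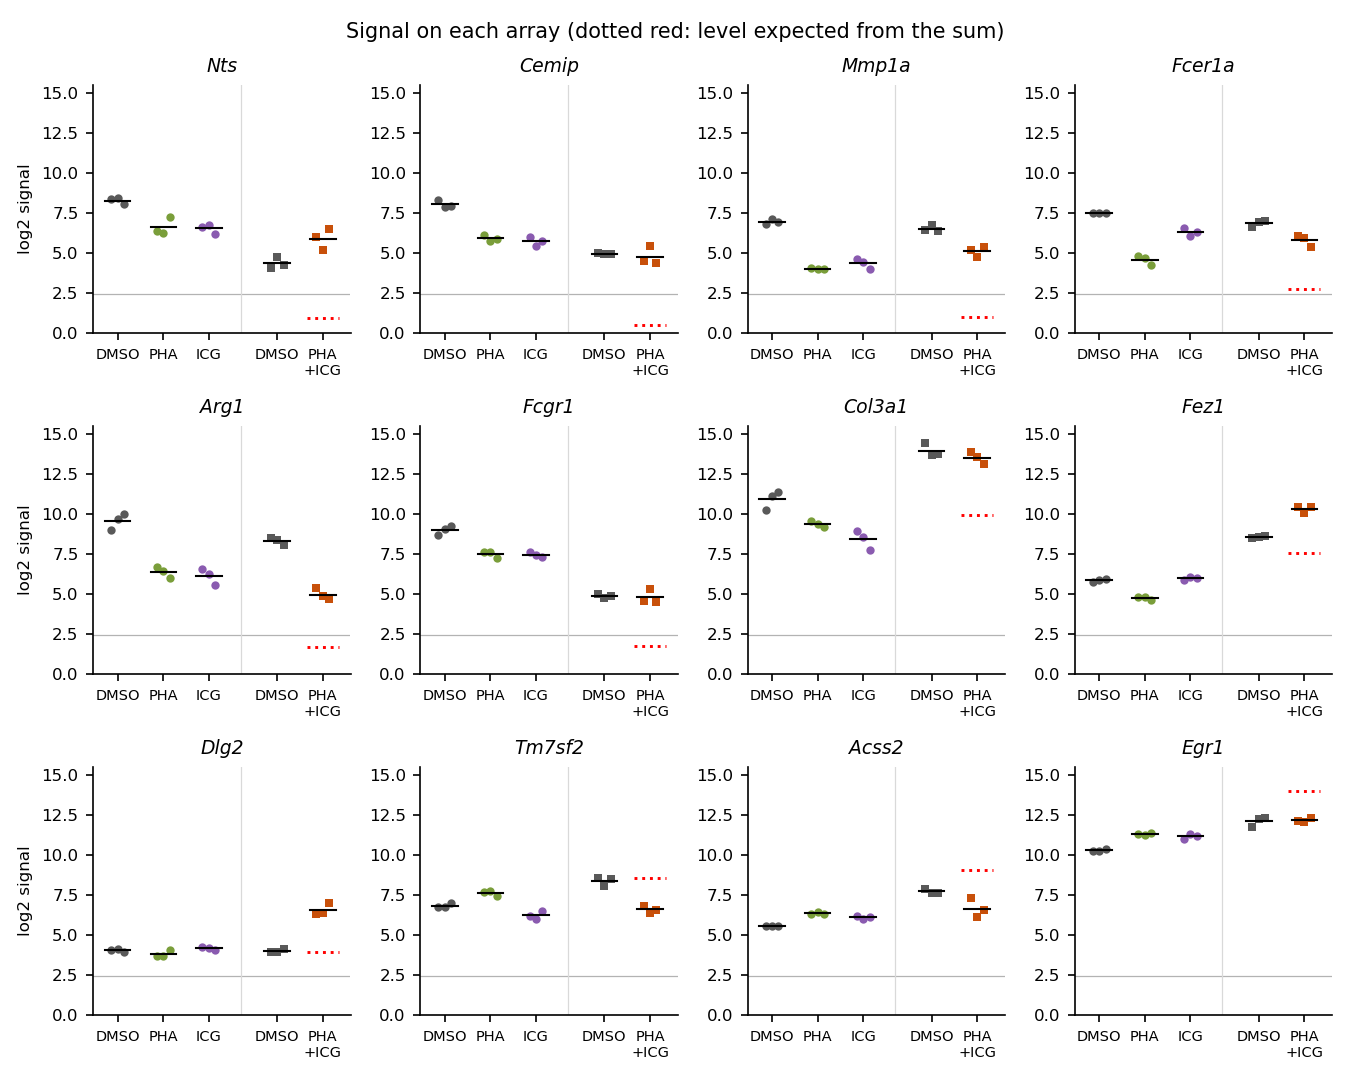
Log2 signal of 12 genes on each of the 15 arrays (circles, first set; squares, second set), with group means as black bars; the dotted red line is the PHA+ICG level expected from the sum and the grey line the lowest gene value, 2.43. In Nts, Fez1 and Dlg2 the PHA+ICG arrays lie above DMSO of their set, in Fcgr1 and Egr1 they overlap it, and in Tm7sf2 and Acss2 they lie under both it and the expected level.

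Genes of mast cells and macrophages were next. Fcer1a, the IgE-binding chain of the high-affinity IgE receptor, read 7.48, 7.50 and 7.47 with DMSO, 4.81, 4.66 and 4.27 with PHA and 6.56, 6.08 and 6.27 with ICG. With DMSO of the second set it read 6.61, 6.93 and 6.99, and with PHA+ICG 6.07, 5.95 and 5.34. No drug group overlapped its DMSO group. The PHA effect of −2.90 had no counterpart of its size in the pair, whose effect was −1.06 (adjusted p = 0.00141 for the difference), and the ICG effect was −1.18. The departure was 3.03 ± 0.38 (adjusted p = 0.0029). Mcpt4, a mast cell chymase, departed by 2.03 ± 0.26 (adjusted p = 0.0029), with effects of −1.25 with PHA, −0.81 with ICG and −0.03 with the pair. The expected levels of Fcer1a and Mcpt4 both lay under 3.40, the 5th percentile of gene values. These are the 2 called of 20 mast cell and basophil markers, against 0.308% of all genes. Of the 20, 15 had positive departures and the median was 0.38, which became 0.20 without DMSO array 1 of the second set, 0.59 without its DMSO array 2, and 0.87 with genes filtered at a group mean of 6. The mean level of that list was 7.32 to 7.36 with DMSO in the first set and 6.36 to 6.97 in the second, and the part of this in the departures was not tested.

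Arg1, which encodes arginase 1, an enzyme known from alternatively activated macrophages, was lower by more than 3 log2 units under every treatment. It read 9.00, 9.64 and 9.99 with DMSO, 6.66, 6.44 and 5.98 with PHA and 6.56, 6.26 and 5.54 with ICG, and then 8.50, 8.33 and 8.06 with DMSO and 5.34, 4.84 and 4.69 with PHA+ICG. Every drug array lay under every DMSO array of its set. The PHA effect was −3.18, the ICG effect −3.42 and that of the pair −3.34, so the departure of 3.27 ± 0.57 (adjusted p = 0.0191) was close to 1 whole single effect. The expected level was 1.69, under the floor, and from the 5th percentile the departure was 1.56. With a weight for each set's spread the call was lost (adjusted p = 0.0562).

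Fcgr1, the high-affinity IgG receptor, was lower with PHA by 1.52 and with ICG by 1.57, and its PHA+ICG effect was −0.07. It read 8.70, 9.07 and 9.24 with DMSO of the first set, but 4.98, 4.73 and 4.88 with DMSO and 4.57, 5.31 and 4.50 with PHA+ICG in the second. DMSO thus differed by −4.14 between the sets and the second-set groups overlapped. Its departure was 3.03 ± 0.39 (adjusted p = 0.0029), with 0.61 in its other probe set. The expected level was 1.77, under the floor, and from the 5th percentile the departure was 1.39. Cd163, a scavenger receptor of macrophages, departed by 3.91 ± 0.62 (adjusted p = 0.0143) from an expected level of 0.22. Measured from the 5th percentile, its departure was 0.73. These are the 2 called of 22 macrophage markers, against 0.308% of all genes. The list's median departure was 0.04, with 12 positive, and its median DMSO difference between the sets was −2.85. The median departure was 0.89 without DMSO array 1 of the second set and −0.68 without PHA+ICG array 1, so its direction rests on single arrays. All 78 calls, Fcgr1 and Cd163 included, were also made when both arrays numbered 1 of the second set were left out, an alternative chosen after the data were seen.

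Of 26 collagen genes 4 were called above the sum (0.308% of all genes) and 0 below, by limma, with 11 of the 26 at an unadjusted p under 0.05. The departures were positive in 16 and negative in 10, with a median of 0.41, which became 0.23 without DMSO array 3 of the first set. The lowest, none of them called, were −3.26 in Col11a1, −1.78 in Col15a1 and −1.18 in Col8a1. Col11a1 read only 3.58 to 4.21 in the first set, where a decrease could hardly be measured. Col3a1, a chain of fibrillar collagen, read 10.26, 11.11 and 11.33 with DMSO, 9.54, 9.35 and 9.19 with PHA and 8.95, 8.54 and 7.74 with ICG. Arrays of the second set read 14.38, 13.69 and 13.72 with DMSO and 13.87, 13.51 and 13.08 with PHA+ICG. The single-drug arrays lay under DMSO, and in the second set the groups overlapped. The effects were −1.54 with PHA, −2.49 with ICG and −0.44, not called, with the pair, and the departure was 3.59 ± 0.64 (adjusted p = 0.0227). Col6a1, Col6a2 and Col6a3, the main chains of microfibrillar collagen, departed by 3.44, 2.73 and 2.84. Postn, periostin, departed by 3.92 ± 0.67 (adjusted p = 0.0190), with an effect of −2.33 with PHA, −2.34 with ICG and −0.74 with the pair.

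With Mfap5, a microfibril protein that departed by 1.57 ± 0.27 (adjusted p = 0.0189), these made 6 called genes among 21 fibroblast markers, against 0.308% of all genes. The median departure of the 21 was 1.37, with 16 positive, and 5 were negative, down to −1.52 in Aspn. Aspn read 3.01 to 3.55 in the first set, where a decrease could hardly be measured. The median DMSO difference of the list was 1.81 between the sets, so the pair was applied where fibroblast genes were higher, and the part of this difference was not tested. With a separate weight for each set's spread, the calls of Col3a1 (adjusted p = 0.0512), Col6a2 (0.0522) and Postn (0.063) were lost.

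**Figure D4:**
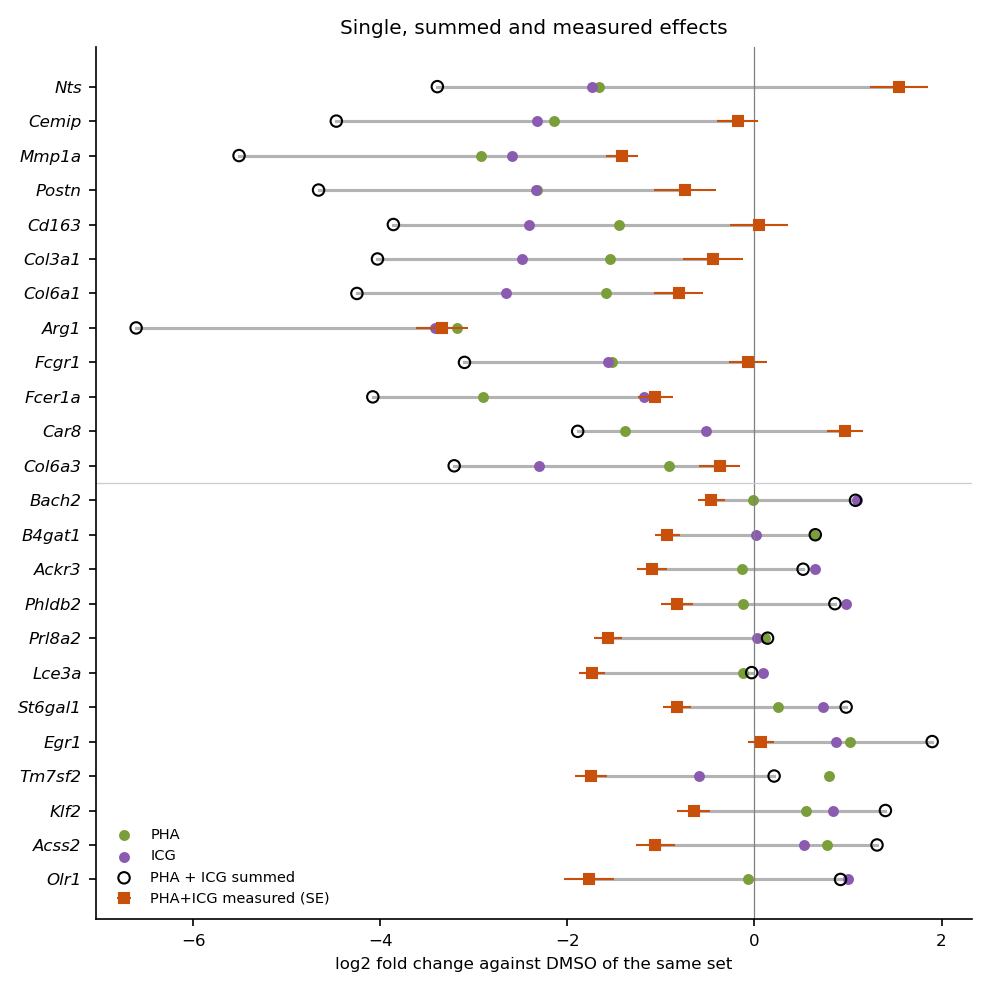
Log2 fold change against DMSO of the same set for the 12 named genes with the highest and the 12 with the lowest departure: PHA (green), ICG (purple), their sum (open circle) and PHA+ICG as measured (orange square with SE from the limma fit, n = 3 arrays a group). In the upper 12 the square lies right of the open circle, by 2.84 (Col6a3) to 4.94 (Nts), and in the lower 12 left of it, by 1.54 (Bach2) to 2.69 (Olr1).

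Some genes above the sum rose with the pair. Fez1, an adaptor of kinesin transport in axon growth, read 5.72, 5.87 and 5.93 with DMSO, 4.81, 4.82 and 4.64 with PHA and 5.86, 6.05 and 5.99 with ICG. The second set gave 8.50, 8.52 and 8.58 with DMSO and 10.40, 10.02 and 10.43 with PHA+ICG. PHA arrays lay under DMSO, ICG arrays overlapped it, and PHA+ICG arrays lay above it. The effect of the pair was 1.75 and the departure 2.71 ± 0.24 (95% interval 2.21 to 3.22; adjusted p = 0.000119), from an expected level of 7.57, and the DMSO groups differed by 2.69. Fez1 was not among the genes the naming rule picks and was chosen after its values were seen.

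Dlg2, a postsynaptic scaffold protein, was called with the pair and with neither single drug. It read between 3.65 and 4.25 on all 9 arrays of the first set and 3.96, 3.93 and 4.12 with DMSO of the second, then 6.33, 6.34 and 6.98 with PHA+ICG. The DMSO groups were −0.03 apart, and the PHA+ICG arrays lay above all others. The departure was 2.65 ± 0.32 (adjusted p = 0.0029). A further probe set of Dlg2 departed by 2.25 and the dimmest by 0.17. Mei4, a gene of meiotic recombination, showed the same form, at 2.73 to 3.39 in the first set, 2.78, 3.65 and 3.26 with DMSO and 5.23, 6.04 and 6.53 with the pair. Its departure was 2.74 ± 0.54 (adjusted p = 0.0461). Clba1, Ackr1, a chemokine-binding receptor, and Piezo1, a mechanically gated channel, complete the 5 genes above the sum that were called with PHA+ICG and within 0.5 of 0 with each single drug. Their departures were 1.93, 1.49 and 1.36.

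Chrna7, Car8 and Arnt2 fell with PHA and rose with the pair. Chrna7, a nicotinic receptor subunit, had effects of −1.28 with PHA, −0.18 with ICG and 0.74 with the pair, and departed by 2.20 ± 0.28 (adjusted p = 0.0029). Car8, a carbonic anhydrase relative without catalytic activity, departed by 2.86 ± 0.38 (adjusted p = 0.0032), and Arnt2, a partner of bHLH-PAS factors, by 1.74 ± 0.20 (adjusted p = 0.00206). Other, dimmer probe sets of these genes departed by −0.04 (Chrna7), by 0.06 and 0.12 (Car8) and by 0.08 and 0.09 (Arnt2). Ednrb, the endothelin B receptor, rose by 2.39 with the pair and by 0.77 with ICG, while its PHA effect of −0.74 was not called, a departure of 2.36 ± 0.38 (adjusted p = 0.0158). Its dimmer probe sets departed by 1.58 ± 0.50 and 0.13 ± 0.31, neither of them called. Dlg2 and Ednrb were the 2 called among 40 neural adhesion and signalling genes, against 0.308% of all genes, and the list's median departure was 0.06. Arnt2, Car8, Cemip, Chrna7, Dlg2, F3, Fcer1a, Fcgr1, Fez1, Mcpt4, Mmp1a and Nts are the 12 genes above the sum that stayed called whichever of the 15 arrays was left out.

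Genes of the ATF4 response were mostly changed by ICG and by the pair, and 1 of them departed from the sum. ATF4 is the factor that switches on amino acid synthesis and transport genes when cells sense shortage or stress. Of 31 measured members, 23 were called with ICG (6.90% of all genes), 2 with PHA (1.00%) and 20 with PHA+ICG (13.3%). The median effect was 1.04 with ICG, −0.08 with PHA and 0.93 with the pair, with a median departure of −0.19. Trib3, a pseudokinase induced by ATF4, read 8.22, 8.08 and 7.98 with DMSO, 8.28, 8.09 and 8.08 with PHA and 10.25, 10.24 and 10.10 with ICG, then 7.64, 9.39 and 8.99 with DMSO and 11.18, 11.01 and 11.30 with PHA+ICG. ICG and PHA+ICG arrays lay above DMSO and PHA arrays overlapped it, with a departure of 0.33 ± 0.60 (95% interval −0.94 to 1.61), which allows sizeable departures both ways. Asns, asparagine synthetase, rose by 2.18 with ICG and by 0.98 with the pair, and its departure of −1.03 ± 0.29 was not called (adjusted p = 0.212).

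Slc7a11, the cystine transporter, was the member that departed. It read 9.36, 9.08 and 8.91 with DMSO, 8.40, 8.47 and 8.57 with PHA and 9.26, 9.44 and 9.56 with ICG, then 7.39, 7.40 and 6.93 with DMSO and 8.56, 8.52 and 8.46 with PHA+ICG. The pair lay above its DMSO arrays and PHA below its own, although the PHA effect was not called (adjusted p = 0.0523). The departure was 1.60 ± 0.29 (adjusted p = 0.0233), and DMSO differed by −1.87 between the sets. Chchd10, a small mitochondrial protein, was the single called gene above the sum with both single effects above 0. Its effects were 0.09 with PHA, 1.64 with ICG and 2.76 with the pair, and its departure was 1.03 ± 0.21 (adjusted p = 0.0465). The other probe set of Chchd10, also bright, departed by 0.51 ± 0.31.

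Both genes carry the core of the C/EBP-ATF response element, TGATGNAA, in their promoters, which are shown because each holds it more than once. The element stood in 4 of 49 promoters above the sum (8.16%; also Limd2 and Nts), in none of 20 below, in 8 of 28 of the ATF4 list (28.6%) and in 3.24% of tested genes (3.97% of all promoters). Capitals mark TGATGNAA or its reverse complement.
Chchd10, chr10:75933015-75933095, plus strand: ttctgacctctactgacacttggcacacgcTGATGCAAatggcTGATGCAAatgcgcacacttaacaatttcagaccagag
Slc7a11, chr3:50443623-50443709, minus strand: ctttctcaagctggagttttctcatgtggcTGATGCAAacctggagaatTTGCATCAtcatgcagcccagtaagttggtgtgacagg
The core stands there 2 times, on the same strand in Chchd10 and on opposite strands in Slc7a11.

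Genes of sterol and acetate metabolism lay below the sum. Tm7sf2, a sterol reductase of cholesterol synthesis, read 6.73, 6.71 and 6.98 with DMSO, 7.65, 7.75 and 7.44 with PHA and 6.17, 5.99 and 6.50 with ICG. In the second set it read 8.54, 8.02 and 8.48 with DMSO and 6.82, 6.39 and 6.58 with PHA+ICG. No drug group overlapped its DMSO group. PHA raised Tm7sf2 by 0.80 and the pair lowered it by 1.75, while the ICG effect of −0.59 was not called (adjusted p = 0.0507). The departure was −1.96 ± 0.34 (adjusted p = 0.0190). Hmgcs1, an early enzyme of the same pathway, read 11.15, 11.15 and 11.14 with PHA+ICG against 12.22, 11.90 and 11.98 with DMSO, and within 9.77 to 10.20 throughout the first set. It was called with the pair and with neither single drug, and its departure was −1.21 ± 0.22 (adjusted p = 0.0247). Acss2, which makes acetyl-CoA from acetate, had single effects of 0.78 with PHA and 0.53 with ICG that were not called, and a called effect of −1.06 with the pair. Its departure was −2.37 ± 0.41 (adjusted p = 0.0191), with −2.76 in a further probe set and 0.07 in the dimmest.

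Of 20 measured cholesterol synthesis genes, all 20 had negative departures, between −0.14 and −1.96, and 2 were called (0.121% of all genes). Over all genes 10267 of 18193 departures were negative. The list's mean level was 8.11, 8.20 and 8.21 with DMSO, 8.48, 8.50 and 8.34 with PHA and 7.69, 7.72 and 7.72 with ICG, and then 9.88, 10.01 and 9.99 with DMSO and 8.98, 8.74 and 8.94 with PHA+ICG. PHA arrays lay above DMSO, and ICG and PHA+ICG arrays lay below it. With the pair 19 of the 20 fell (8.81% of all genes) and with ICG 6 fell (4.79%). With PHA 2 were called, both upward (0.0989%). The list's median DMSO difference between sets was 1.63, with DMSO of the second set higher. The part of this difference in the departures was not tested. With all 6 DMSO arrays taken as 1 control, which adds that difference to the contrast, the median departure turned from −0.95 to 1.86.

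All 16 of these genes with a listed promoter hold CCAAT, the core of the NF-Y site, against 42.0% of tested genes and 37.4% of all promoters. The sterol regulatory element as TCACNCCAC, a motif added after the genes were seen, was found in 1 of the 16, Hmgcs1, against 1.46% of tested genes and 1.24% of all promoters. It is shown as the single called gene of the list with that element, in capitals, 137 bases before the start.
Hmgcs1, chr13:119690184-119690252, plus strand: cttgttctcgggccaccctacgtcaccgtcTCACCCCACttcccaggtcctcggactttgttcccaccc
No match in the other promoters says only that these letters are not in this window.

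**Figure D5:**
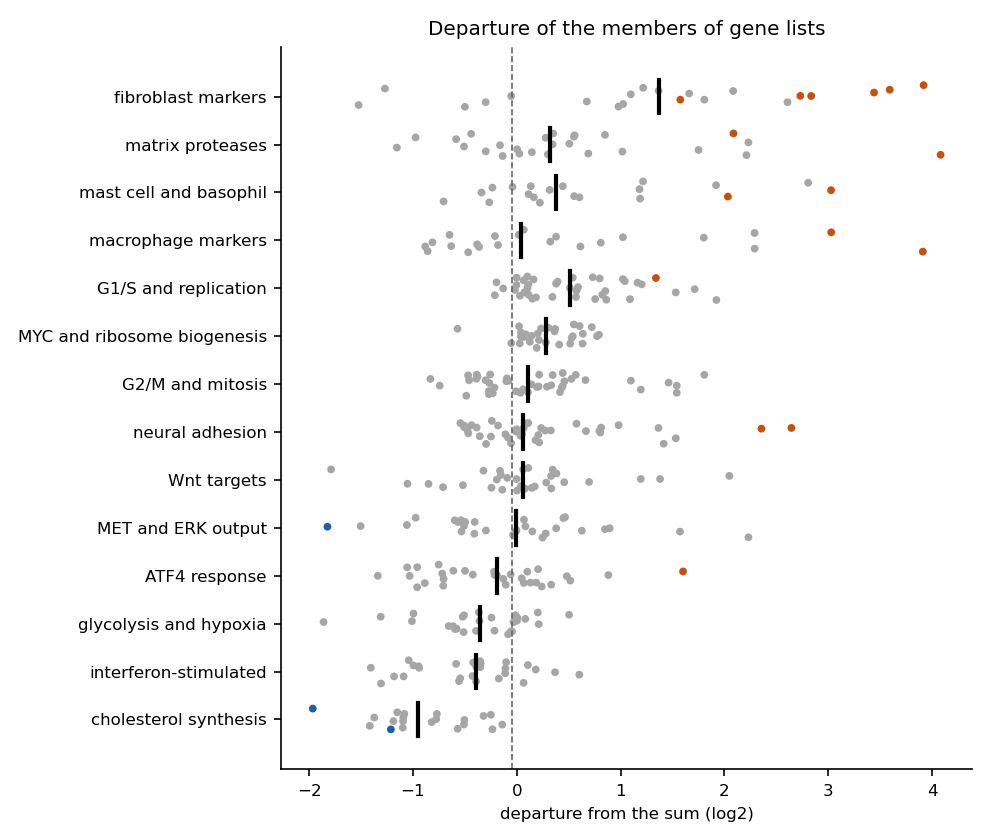
Each point is a gene of the named list, placed by its departure from the sum (log2), with orange for genes called above the sum, blue for genes called below and grey for the rest; black bars are list medians and the dashed line is the median of all genes, −0.05. Fibroblast markers have the highest median of the lists shown, 1.37, and all 20 cholesterol synthesis genes lie below 0.

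The other genes below the sum had various roles. Egr1, an immediate-early factor induced through ERK, read 10.25, 10.22 and 10.33 with DMSO, 11.29, 11.25 and 11.33 with PHA and 10.96, 11.26 and 11.19 with ICG. The second set gave 11.70, 12.22 and 12.31 with DMSO and 12.11, 12.03 and 12.30 with PHA+ICG. Both singles raised it on every array, and with the pair the groups overlapped. The departure was −1.82 ± 0.29 (adjusted p = 0.0143), and the DMSO groups differed by 1.81. Klf2, a zinc finger factor of quiescence, departed by −2.05 ± 0.35 (adjusted p = 0.0190), with called effects of 0.84 with ICG and −0.65 with the pair and 0.55 with PHA, not called. Olr1, a receptor of oxidised LDL, had the lowest departure of all called genes, −2.69 ± 0.54 (adjusted p = 0.0465). It read 7.89, 8.03 and 7.89 with DMSO, 8.05, 7.61 and 7.92 with PHA and 8.95, 8.95 and 8.90 with ICG, and then 9.40, 10.04 and 10.30 with DMSO and 8.49, 7.38 and 8.55 with PHA+ICG. ICG alone raised Olr1 and the pair lowered it, without overlap.

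Bach2, a transcriptional repressor known from B cells, and Aqp3, a glycerol and water channel, rose with ICG by 1.10 and 1.35 and were within 0.5 of DMSO with the pair. Their departures were −1.54 and −1.42. Other probe sets departed by −0.32 and −0.78 (Bach2, of about equal mean signal) and by −1.13, −0.93 and −0.18 (Aqp3, dimmer). Sgk1, a kinase of ion transport, was flat in the first set, at 13.33 to 13.52 on all 9 arrays. It read 12.11, 12.04 and 12.31 with DMSO and 10.98, 10.70 and 11.16 with PHA+ICG of the second, and departed by −1.34 ± 0.23 (adjusted p = 0.0191). Lce3a, of the cornified envelope, had the same form, with a departure of −1.71. Creb3, a membrane-bound transcription factor, departed by −1.21, but its PHA arrays, at 10.46 to 10.51, lay above DMSO of the first set, at 10.17 to 10.26. Other probe sets of Creb3 departed by −0.37, −0.77 and −0.34. Prl8a2, a prolactin relative of the placenta and decidua, departed by −1.70, but it read 3.76 to 4.48 in the first set and 10.15 to 11.79 in the second, so the single drugs met it at a low level. With a weight for each set's spread this call was lost (adjusted p = 0.0778). Leaving out any DMSO array of the first set left 0 genes called below the sum, and 35, 12 or 20 above it.

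Genes of the pathways named in the series were also counted. Among 29 MET and ERK output genes 1 was called, Egr1, against 0.429% of all genes, with 7 at an unadjusted p under 0.05, and the median departure was −0.01. Among 31 Wnt and β-catenin targets 0 were called by limma, with 5 at an unadjusted p under 0.05, and the median was 0.06. Over all genes 1294 of 18193 had such a p. Axin2, a feedback inhibitor and common readout of β-catenin, departed by 0.28 ± 0.19 (95% interval −0.11 to 0.68), Myc by 0.04 ± 0.31 (−0.63 to 0.71) and Dusp6, a phosphatase that feeds back on ERK, by −0.30 ± 0.29 (−0.91 to 0.32). The intervals leave room for departures of that size and are no sign of exact additivity. Met, the receptor gene, departed by 0.89 ± 0.48 (adjusted p = 0.804) and read 10.09 to 10.24 with DMSO of the first set and 7.38 to 8.20 with DMSO of the second.

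Genes of the cell cycle fell with ICG and with the pair. Of 39 G1/S and replication genes, 25 fell with ICG (4.79% of all genes) and 21 with PHA+ICG (8.81%), the median effects being −0.74 and −0.54, and 33 of the 39 departures were positive, with a median of 0.51, which became 0.27 without DMSO array 3 of the first set. Mcm2, a subunit of the replicative helicase, was called (0.308% of all genes), at 1.34 ± 0.27 (adjusted p = 0.0492). It read 9.31, 9.56 and 9.86 with DMSO, 9.29, 9.29 and 9.13 with PHA and 8.65, 8.67 and 8.62 with ICG, then 9.16, 9.51 and 9.25 with DMSO and 9.23, 9.45 and 9.47 with the pair. The ICG arrays lay below DMSO, and with the pair the groups overlapped. With a weight for each set's spread the call was lost (adjusted p = 0.0633). Of 43 G2/M genes 29 fell with ICG (4.79% of all genes) and 32 with PHA+ICG (8.81%). By limma 0 of them departed (4 at an unadjusted p under 0.05). Their median departure was 0.11, but 0.50 without DMSO array 1 and −0.19 without DMSO array 3 of the first set, so it has no settled direction. Top2a, the topoisomerase of dividing cells, departed by 1.54 ± 0.60 (adjusted p = 0.535).

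Genes that changed under all 3 treatments were also set against the sum. Both singles were called with the same sign for 74 genes, and the pair was called in that direction too for 38. Of these 38, Manf and S1pr3 lay within 0.25 of the sum. The median SE of the departure over all genes was 0.29, so this count does not tell how common additivity was. Manf, a secreted factor of the endoplasmic reticulum, read 12.24, 12.21 and 12.11 with DMSO, 11.80, 11.73 and 11.78 with PHA and 11.63, 11.64 and 11.68 with ICG, then 12.08, 12.27 and 12.11 with DMSO and 11.16, 11.16 and 11.12 with PHA+ICG. Its effects of −0.41 and −0.53 met −1.01 in the pair without overlap, a departure of −0.06 ± 0.17 (95% interval −0.43 to 0.31). S1pr3, a sphingosine 1-phosphate receptor, had effects of −1.05, −1.13 and −2.04 and a departure of 0.14 ± 0.38 (95% interval −0.67 to 0.95).

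The number of calls moved with single arrays and with the treatment of the spread. Against 78 genes, 424 (231 above, 193 below) were called with same-numbered arrays of the second set as pairs, and these held all 78. Left out one at a time, DMSO arrays 1, 2 and 3 of the first set gave 35, 12 and 20 calls, PHA arrays 1 and 2 gave 49 and 32, ICG array 2 gave 50, and array 1 of DMSO or of PHA+ICG in the second set gave 188 and 182. Without both of those arrays 527 genes were called, 252 above and 275 below.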

How the data were processed

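The deposited values of 45101 probe sets on 15 arrays were used on the log2 scale, as the authors deposited them. The submitters' processing notes name MAS5 and RMA without versions or roles, and whether both sets were normalized together is not given in the sources used here. RMA compresses low signals, which bears on levels near the floor. Probe sets were named through the platform's annotation: 34945 had 1 symbol, 932 had several and 9160 had none, and 64 controls were left out. The probe set with the highest mean stood for each of 18193 genes (9010 had more than 1).

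The linear model of 5 group means covered every array (limma 3.58.1 under R 4.3.3, lmFit and eBayes, 10 residual and 4.33 prior degrees of freedom), with Benjamini-Hochberg adjustment over all genes at 0.05. The departure is (PHA+ICG minus its DMSO) minus (PHA minus DMSO) minus (ICG minus DMSO), so DMSO of the first set has a weight of 2, and the PHA and ICG effects share it. Intervals are 95% intervals of the moderated fit. The procedure was tested on simulated data. Tables, motif searches and figures were made in Python 3.11.15 (pandas 2.3.3, numpy 2.4.6, matplotlib 3.10.9).

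Members and the 36 gene lists were chosen with earlier results of these data known. Named genes were the 12 highest and 12 lowest called departures, the first 6 in each direction of the classes called with the pair only, lost with the pair or less than the sum, genes near the sum, up to 4 called members of lists with at least 2, and 26 fixed genes; clone-like symbols were passed over. F3, Fez1, Chrna7, Arnt2, Chchd10, Slc7a11, Mcm2, Mfap5, Aspn, Mcpt8, Col8a1, Col11a1 and Col15a1 were chosen after their values were seen. In the second set, arrays with equal numbers moved together around their group means (correlations of 0.614, 0.363 and 0.277) and were taken as pairs, although no label tells what equal numbers stand for; those of the first set did not (−0.262 to 0.117). Alternatives covered normalization, probe set choice, a filter at 6, weights, prior, replicate blocks, the control, the reference and leaving out each array.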

Additional observations from a re-analysis of the deposited data

How the results depend on the processing

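The count of 78 called genes (56 above the sum, 22 below) became 131 with a weight for each set (87 above, 44 below), 1217 with a weight for each array (494 and 723), 226 with the replicate number as a block in both sets (144 and 82) and 424 with this replicate block in the second set only (231 and 193). Leaving out 1 array at a time gave 12 to 188 calls, 12 to 114 above and 0 to 94 below. It gave 300 to 434 genes with a departure of at least 1 and 195 to 411 of at most −1, against 341 and 232. Against the larger of the single effects in place of the sum, 179 genes departed by at least 1. Under that reference the departures of 58 of the 78 called genes moved, and those of 20 did not. Leaving out both arrays numbered 1 of the second set, chosen after the data were seen, gave 527 calls (252 and 275). All 78 genes stayed called with the block in the second set and 77 with the block in both sets.

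With all 6 DMSO arrays as 1 control, 5424 genes were called (2774 above, 2650 below), and 1382 and 1342 departed by at least 1 up or down. By construction this adds 1.5 times the DMSO difference between the sets to each departure, and 33 of the 78 called genes and 5 other named ones changed sign. The reversed values for genes above the sum were −1.27 (Arap3), −1.44 (Bmpr1b), −1.10 (Car4), −0.49 (Cd40), −0.07 (Cdk20), −0.36 (Cemip), −0.10 (Chchd10), −1.56 (Clba1), −4.02 (Clec7a), −2.80 (E330020D12Rik), −0.76 (Ednrb), −1.09 (Fabp7), −3.19 (Fcgr1), −0.10 (Grhl3), −1.75 (Inava), −0.91 (Mcpt4), −0.93 (Nts), −0.53 (Pdgfb), −0.27 (Pinlyp), −1.21 (Slc7a11) and −0.61 (Tusc1). For genes below the sum they were 1.38 (Ackr3), 0.85 (Acss2), 0.89 (Egr1), 0.03 (H2bc22), 2.11 (Hmgcs1), 0.28 (Klf2), 2.46 (Medag), 0.53 (Nxn), 0.27 (Olr1), 9.70 (Prl8a2), 1.93 (St6gal1) and 0.34 (Tm7sf2). For uncalled genes they were 1.69 (Asns), 3.71 (Cxcl12), −0.64 (Hgf), −2.67 (Met) and 0.59 (Nkd1).

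Under quantile normalization 65 of the 78 genes stayed called, as under median centring, and 55 did with the mean of all probe sets. No called gene changed sign under these, under weights, under the trended prior or when 1 array was left out. When 1 array was left out, list medians kept their sign for fibroblast (1.19 to 1.80), collagen (0.23 to 0.50), G1/S (0.27 to 0.65), cholesterol (−0.99 to −0.79), ATF4 (−0.26 to −0.12), protease (0.10 to 0.60) and mast cell genes (0.20 to 0.59). They changed sign for macrophage (−0.68 to 0.89), G2/M (−0.19 to 0.50), MET and ERK (−0.17 to 0.07), Wnt (−0.03 to 0.13) and neural genes (−0.03 to 0.18). The correlation with the sum ran from 0.493 to 0.562 when 1 array was left out. Levels near 2.43, the lowest gene value, set a limit on how far any decrease can be measured.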

Other observations

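Some lists not described above leaned to one side without a called gene. Of 29 MYC and ribosome biogenesis genes, 27 had positive departures, with a median of 0.28 against −0.05 over all genes, no call by limma (0 of 29), and 6 genes with an unadjusted p under 0.05. Their median effects were −0.11 with PHA, 0.00 with ICG and 0.15 with the pair. Of 28 interferon-stimulated genes, 23 had negative departures, with a median of −0.39, and DMSO of the second set was lower by a median of 1.37. Of 27 glycolysis and hypoxia genes, 21 had negative departures, with a median of −0.36, and 11 fell with the pair (8.81% of all genes) and 2 with ICG (4.79%). In the interferon list 3 genes, and in the glycolysis list 6, had an unadjusted p under 0.05, and limma called 0 in both.

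Csn2, the milk protein β-casein, had the lowest departure of any gene, −4.14 ± 2.37 (SE), and was not called (adjusted p = 0.834). It read 5.54 to 6.37 with DMSO of the first set, 13.01, 7.19 and 7.00 with DMSO of the second and 6.70, 3.45 and 4.06 with PHA+ICG, so its DMSO array 1 stood apart. Col11a1, a minor fibrillar collagen, departed by −3.26, opposite to Col3a1, and was not called. Mcpt8, a basophil protease, read 9.75, 10.39 and 9.77 with DMSO, 7.61, 7.28 and 8.43 with PHA and 7.79, 7.14 and 8.00 with ICG, then 12, 12.73 and 12.78 with DMSO and 10.76, 10.92 and 10.67 with PHA+ICG. All drug groups lay below DMSO, and its departure of 2.81 was not called.

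Among 10092 probe sets without a single gene symbol, 2 were called above the sum and 2 below, with 497 at an unadjusted p under 0.05.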
